A study of Mus musculus with 27 samples.

Results

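Genes with a transcript level that climbed to a maximum or sank to a minimum in the middle of an 18-day osteoblast culture were taken from the whole expression table by their shape in time. Counts of the 3 lane files of each day were summed into 1 library per day and expressed as CPM, counts divided by the size of the library, with upper-quartile scaling. A gene belonged to the set when its mean CPM over days 6, 8, 10 and 12 (the middle days) lay above, or below, both the mean of days 2 and 4 (the early days) and the mean of days 16 and 18 (the late days). Of 14950 genes with enough counts to test, 4471 (29.9%) met this rule, of which 2704 (18.1%) peaked and 1767 (11.8%) dipped, and 10479 lay between their early and late means. The rule has no minimum height, so it includes Irf1 (6.03 CPM early, 9.153 in the middle and 9.151 late) and leaves out Cdk19 (18.1, 37.37 and 37.39 CPM).

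The cells came from the calvaria of C57BL/6J-Col3.6 CFP mice aged 5 to 9 days, a strain in which a fragment of the type I collagen promoter drives a cyan fluorescent protein in cells of the osteoblast lineage and in other cells that use this promoter. Fluorescent cells were sorted and then cultured with ascorbic acid and beta-glycerol phosphate, and RNA was taken every second day from day 2 to day 18. All days share this genotype and medium, and there is no untreated arm. The methods of the study speak of triplicates. The 3 files of a day, however, carry the same barcode with different lane numbers and agree within counting noise (chi-square per degree of freedom from 0.999 to 1.02), so they were counted as 1 library, and fits that take them as separate samples are given at the end. Of the transcripts that mark osteoblasts, Col1a1 had at least 4974 CPM on every day and the transcription factor Runx2 143 to 222 CPM. The sort selected cells that use a type I collagen promoter, so the level of Col1a1 is no independent mark. Alpl (alkaline phosphatase) ranged from 0.676 to 24.6 CPM. The transcription factor Sp7 stood at 49.9 CPM on day 2 and at 7.53 to 14.2 on the other outer days. Library totals ranged from 22470195 counts on day 10 to 62009157 on day 12, and day 8, where many peaks lie, had 29775703. The comparison therefore rests on 4 middle against 4 outer libraries with 1 library at each day, p-values measure the spread between days rather than between cultures, and a change with day cannot be told apart from a difference between single wells or preparations.

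Cells recognise interferon through surface receptors coupled to Janus kinases, which activate transcription factors, Stat2 among them. With Irf9 these factors bind promoters that carry repeats of the letters GAAA and switch on interferon-stimulated genes, a set that includes RNA sensors, antiviral effectors and the antigen-presentation machinery. Osteoblasts, the cells that lay down bone, pass from proliferation through matrix deposition to mineralization, and matrix genes, osteoblast transcription factors and imprinted growth genes change along that course.

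The middle and the outer days were first compared directly. No gene passed an adjusted p of 0.05 in edgeR's quasi-likelihood test of the middle against the outer libraries (0% of genes tested). In that test 497 genes (3.32%) had an unadjusted p under 0.05, of which 308 peaked (2.06% of genes tested) and 186 dipped (1.24%). A share of 0.05 would arise at this cutoff without any difference, so 3.32% is no excess. Tested against each side in turn by the same tool, no gene passed the adjusted threshold against the early days (0%, lowest adjusted p 0.062, 5110 genes at an unadjusted p under 0.05) or against the late days (0%, lowest adjusted p 0.135, 2568 genes). At an unadjusted p under 0.05 on both sides, 73 genes (0.488%) were higher and 43 (0.288%) lower in the middle. DESeq2 called 36 peaking and 23 dipping genes in the direct comparison, and 30 and 11 against both sides.

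The outer group mixes the start and the end of a culture in which a straight line in day was called for 8290 genes (55.5%), and the common dispersion fell from 0.205 with 2 groups to 0.0815 with 3 groups and 0.0311 with a curve. The calls used below therefore come from a line plus a day-squared term over all 9 libraries, an alternative that was planned, but which was chosen as the source of calls after the direct comparison had been seen. Its measure, the bend, is the fitted log2 level on day 10 minus the average of the fitted levels on days 2 and 18. With an adjusted p under 0.05 for the bend and the matching shape, 455 genes peaked (3.04% of genes tested) and 223 dipped (1.49%). These counts depended on single libraries. Without day 10 there were 191 peaks, without day 2 there were 232 peaks and 134 dips, without day 12 there were 279 and 142, and without day 18 there were 284 and 93, while DESeq2 gave 387 dips. The same CPM values set the shape and the bend, so these calls describe the curves and are no separate evidence that the genes were chosen well.

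Of the 455 peaking genes, 357 (78.5%) were not called by a straight line in day, and of the 223 dipping genes 162 (72.6%) were not. Most calls were modest in height. The median fold of the middle mean over the nearer side was 1.19 for peaks and 1.15 for dips, while 42 peaks and 19 dips reached a height of at least 1 log2 unit. The 4 middle libraries did not overlap the 4 outer ones in 127 of the called peaks (0.849% of genes tested) and 70 of the called dips (0.468%), and over all tested genes the middle libraries lay wholly above the outer ones for 276 (1.85%) and wholly below for 155 (1.04%). In the plot of both sides the called genes lie where the middle differs from both ends in the same direction, which the shape rule requires.

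**Figure D1:**
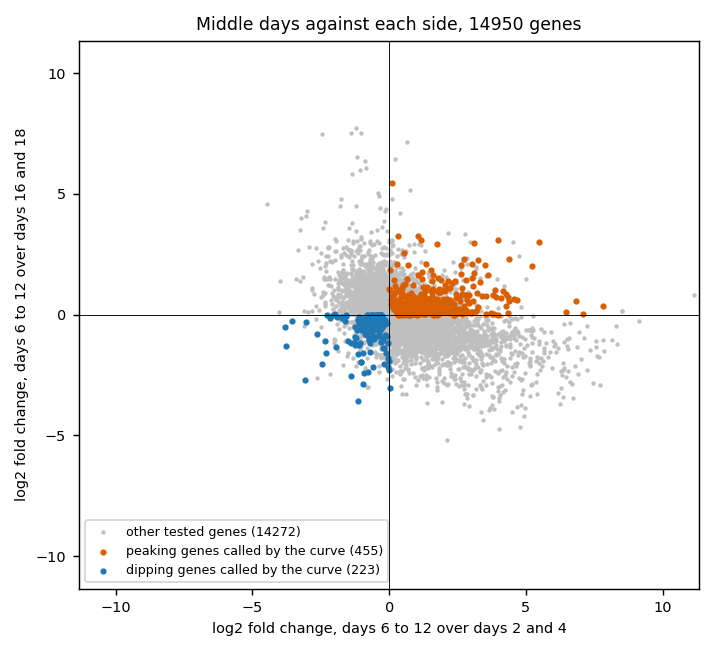
Each point is 1 of 14950 genes, placed by its log2 fold change of days 6 to 12 over days 2 and 4 (x axis) and over days 16 and 18 (y axis), with 455 peaking (orange) and 223 dipping (blue) genes called by the curve. The grey points spread farthest where one side is higher and the other lower, which is the shape of a steady rise or fall. The shape rule itself places the called genes in the upper right and lower left corners.

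The tallest peaks that met the rule for named genes were highest on day 8. Among the 86 called peaks that are protein coding, have a mean of at least 5 CPM and do not overlap between middle and outer libraries, all 14 with the largest height over the nearer side were highest on day 8. In order they were Oas2, Dhx58, Bst2, Oasl2, Slfn8, Xaf1, Ddx60, Rnf213, Stat2, Trim30a, D14Ertd668e, Crabp1, Gbp3 and H2-Q4. Bst2, Oasl2, Xaf1 and Stat2 are on the list of interferon-stimulated genes described below. Called peaks outside these filters reached a height of 3.15 log2 units, against 2.33 for Oas2. Oas2 and Oasl2 belong to the oligoadenylate synthetase family that detects double-stranded RNA, Dhx58 and Ddx60 are RNA helicases, Bst2 (tetherin) holds budding virus at the cell surface, and Gbp3 is a guanylate-binding protein. Crabp1 carries retinoic acid in the cytoplasm.

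**Figure D2:**
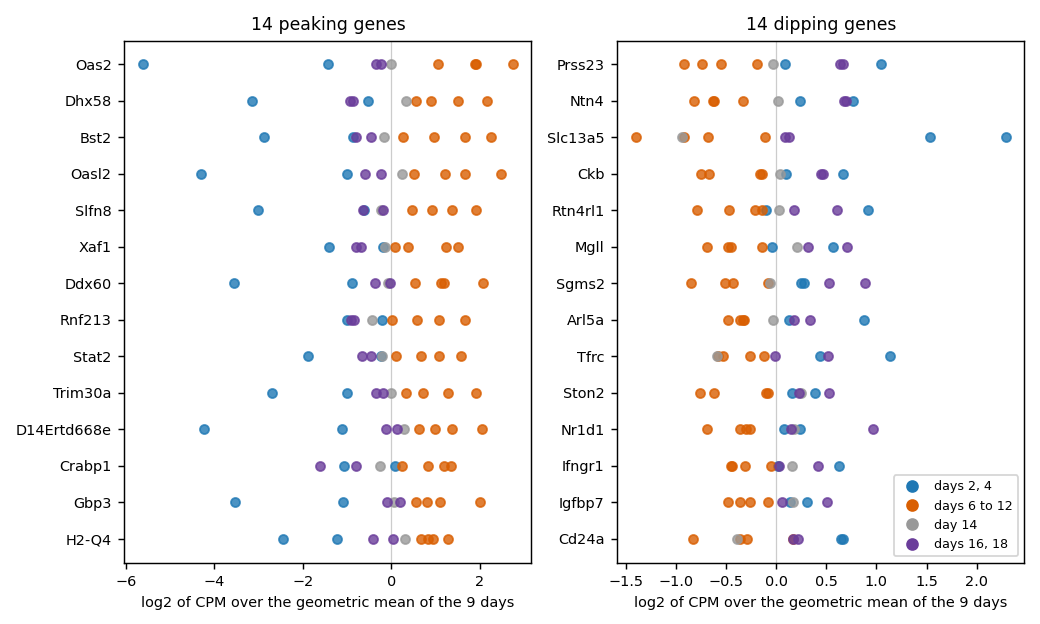
Each row is a gene and each point 1 library, placed by the log2 of its CPM over the gene's geometric mean across the 9 days, for the 14 peaking (left) and the 14 dipping (right) genes. Orange points are days 6 to 12, blue points days 2 and 4, and purple points days 16 and 18. The naming rule required no overlap of middle and outer libraries, which fixes the order of these colours. Orange lies to the right of blue and purple in every peaking gene and to their left in every dipping gene. Day 2 is the lowest library in 13 of the 14 peaking genes.

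Oas2 stood at 0.0469 CPM on day 2 and 0.854 on day 4, rose to 8.72, 15.6, 8.61 and 4.82 on days 6, 8, 10 and 12, and was 2.31, 1.81 and 1.95 on days 14, 16 and 18. Bst2 stood at 3.63 and 14.6 CPM on the early days, at 84.7, 127, 51.7 and 32.1 on the middle days, at 23.8 on day 14 and at 19.2 and 15.2 on the late days. Both genes were thus at their highest 2 days after the first middle library, declined from there, and ended above their day 2 level. The bend was 4.13 ± 1.07 log2 units (SE) for Oas2 and 3.31 ± 0.85 for Bst2 (edgeR quasi-likelihood test, adjusted p = 0.0312 and 0.0308, 9 libraries). Both calls were lost without day 2, 4, 8, 10 or 16, where the bend of Bst2 went as low as 2.01. Of the 14 peaks, 2 remained called without day 2, 3 without day 4, 8 or 16, 4 without day 10 and 3 with the robust option of edgeR, and at least 13 without any of the other days. Crabp1 and H2-Q4 kept the call without each day.

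Dhx58 went from 0.492 and 3.03 CPM on the early days through 12.4, 19.7, 8.20 and 6.44 to 2.40 and 2.28 on the late days, so that its middle mean was 5.00-fold the higher of the 2 sides. Rnf213, a very large ubiquitin ligase, stood at 68.8 and 119 CPM early, at 289, 439, 205 and 139 in the middle and at 73.3 and 76.9 late, a 2.86-fold height. In both, the lowest middle library was above the highest outer library, as the naming rule required. Estimated counts were whole numbers (within 0.005) in all 27 lane profiles for Oas2, Bst2, Oasl2, Ddx60, Rnf213, Stat2 and Crabp1. For Dhx58, Slfn8, Xaf1, Trim30a, D14Ertd668e, Gbp3 and H2-Q4 they were whole in 7 profiles or fewer, which means that reads shared with other genes were divided by estimation, and their levels are less certain for that reason.

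The list of 18 interferon-stimulated genes shared the peaking shape, although the direct comparison called none of them and the curve only some. The list was chosen with earlier results of these data known, so the shares below describe it and are no separate evidence. All 18 had the peaking shape, against 18.1% of all genes tested, all 18 were highest on day 8 and 17 were lowest on day 2. The middle libraries lay wholly above the outer ones in 13 of the 18, against 1.85% of all genes, and 15 had an unadjusted p under 0.05 in the direct comparison, against 3.32%. The median log2 fold change of middle over outer days was 2.24 in the list and -0.01 over all genes. The curve called 7 of the 18, among them Bst2, Ifit2, Irf9, Oasl2, Stat2 and Xaf1, against 3.04% of all genes. Summed as a share of all counts, the 18 genes made up 89.7 and 335 CPM on the early days, 1352, 1956, 810 and 523 on the middle days, 425 on day 14 and 315 and 363 on the late days.

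**Figure D3:**
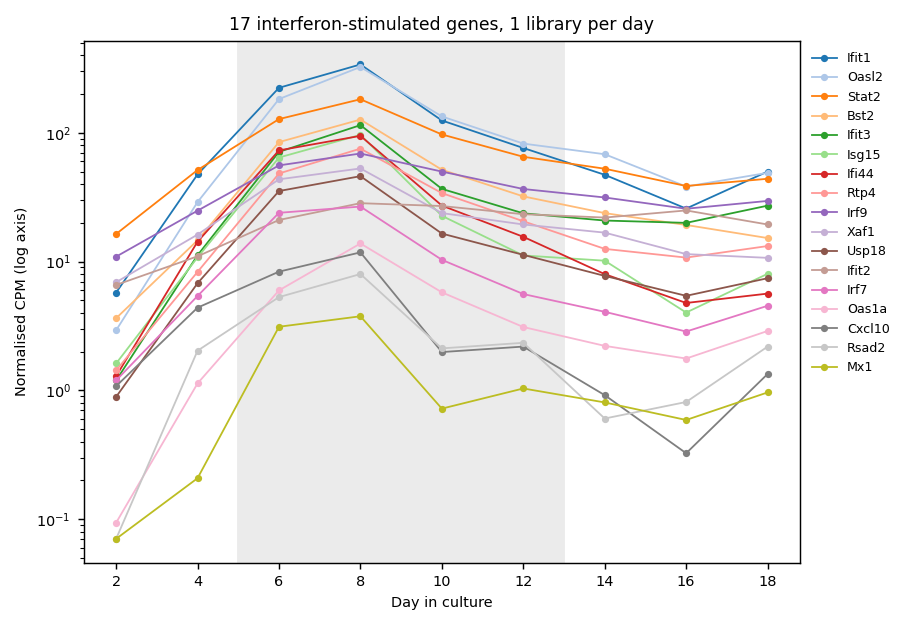
Normalised CPM (log axis) of 17 of the 18 interferon-stimulated genes against day in culture, 1 line per gene and 1 library per point, with the middle days shaded. All 17 lines reach their highest point on day 8, and 16 of them start from their lowest value on day 2.

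Isg15, Ifit1 and Ifi44 are antiviral effectors with the peaking shape that were not called. Isg15, a ubiquitin-like protein, went from 1.62 CPM on day 2 and 10.8 on day 4 to 64.3 and 96.4 on days 6 and 8, then to 22.7 and 11.2 on days 10 and 12 and to 4.02 and 8.04 on the late days. Ifit1, which binds foreign RNA ends, stood at 5.74 and 47.5 CPM early, at 224, 340, 125 and 76.2 in the middle and at 25.8 and 50.0 late. Ifi44 followed with 1.29 and 14.3, then 73.0, 94.7, 27.2 and 15.6, then 4.77 and 5.64 CPM. In all 3 the middle and outer libraries did not overlap, but the lowest middle library, day 12, was only 1.04, 1.52 and 1.09 times the highest outer one, and the bend missed the adjusted threshold (3.36 ± 1.30, 3.18 ± 1.13 and 3.72 ± 1.23 log2 units, edgeR quasi-likelihood adjusted p = 0.12, 0.0936 and 0.0732).

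Stat2 and Irf9, factors that carry the signal, were among the called genes, with bends of 2.10 and 1.59 log2 units. Both lost the call without day 2, 4, 8 or 10, and Stat2 also without day 16. Stat2 stood at 16.4 and 51.4 CPM on the early days, at 128, 182, 97.1 and 65.1 on the middle days and at 38.6 and 44.0 late. Irf9, its DNA-binding partner, went from 10.9 and 24.9 to 55.8, 69.1, 50.0 and 36.6 and ended at 25.7 and 29.6 CPM. In both factors, as in Oas2, Bst2 and Ifit1, the late mean stayed above the early mean, whereas Isg15 and Ifi44 had late means of 6.04 and 5.21 CPM against early means of 6.21 and 7.79. Irf7, which amplifies the response, went from 1.195 and 5.40 to 23.9, 26.7, 10.3 and 5.595 CPM, with 2.86 and 4.54 late, and was not called by the curve (edgeR quasi-likelihood adjusted p = 0.129).

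Ligands, receptors and kinases lie upstream of these factors, and none of them was called as peaking. A further set of lists was drawn up after the interferon-stimulated genes had been seen to peak. It included ligands, receptors, sensors, antigen processing, and guanylate-binding proteins with related GTPases. None of the 10 interferon ligand genes listed had enough counts to test. Ifnb1 had 1 count on day 8 and Ifng 1 count on day 2, and the other 8 (Ifna1, Ifna2, Ifna4, Ifna5, Ifne, Ifnk, Il28a and Il28b) had 0 counts on every day, which allows up to 0.134 CPM in the shallowest library. Of 9 receptor, kinase and feedback genes, 1 had the peaking shape and none was called as peaking. The dipping shape was found in 3 of the 9, against 11.8% of all genes, and the middle libraries lay wholly below the outer ones in 2, against 1.04%. These were Ifngr1 and Ifngr2, the subunits of the type II interferon receptor, of which Ifngr1 was called as dipping, against 1.49% of all genes, and lost the call without day 2. The type I receptor subunits Ifnar1 and Ifnar2 had log2 fold changes of -0.03 and 0.01 between middle and outer days, and the kinases Jak1 and Tyk2 of -0.15 and 0.12.

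Most nucleic acid sensors had the peaking shape, but only Dhx58 was called. Of 11 tested, 8 had the shape (18.1% of all genes did), 3 (Ddx58, Dhx58 and Ifih1) had middle libraries wholly above the outer ones (1.85% of all genes), and the curve called 1 (3.04% of all genes), whose call was lost without day 2. The fold over the nearer side was 1.80 for Ddx58, which detects viral RNA ends, 1.90 for Ifih1, which detects long double-stranded RNA, and 1.73 for the kinase Eif2ak2. The DNA-sensor adaptor Tmem173 (log2 fold change 0.13) and the adaptor Mavs (-0.07) lay close to the median of all genes.

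Called genes of antigen presentation had their maxima on different days. Of 12 genes of antigen processing, 9 had the peaking shape, against 18.1% of all genes, and all 9 were called by the curve, against 3.04%. H2-K1, a class I heavy chain, stood at 22.3 and 37.1 CPM early, at 82.8, 169, 205 and 210 in the middle, at 151 on day 14, and its middle mean exceeded the late mean by 1.05-fold. H2-D1 stood at 25.5 and 33.0 CPM early and at 63.7, 116, 147 and 160 in the middle. These class I genes were thus highest on day 12 and Psmb9 of the immunoproteasome on day 10 (16.3 CPM), while Psmb8 and the transporter Tap1 were highest on day 8, with 20.6 and 32.7 CPM. The difference in day was not tested. H2-K1, H2-D1 and Psmb9 kept the call without each day, and Psmb8 and Tap1 lost it without day 2. H2-K1, H2-D1 and Psmb9 share reads with related genes (whole counts in 14, 0 and 0 of the 27 profiles).

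Guanylate-binding proteins and immunity-related GTPases, a list added after the interferon-stimulated genes had been seen to peak, mostly had the peaking shape. All 11 listed were tested, 10 had the peaking shape (18.1% of all genes did), the middle libraries lay wholly above the outer ones in 8 (1.85% of all genes), and the curve called 7 (3.04% of all genes). Iigp1, a GTPase of the defence against vacuolar parasites, stood at 0.891 and 4.90 CPM on the early days and 40.9, 84.5, 47.9 and 34.3 on the middle days. Irgm2 went from 5.70 and 26.0 to 89.8, 136, 105 and 75.2 CPM. On day 14 both genes stood below every middle library, at 23.9 and 59.0 CPM. Iigp1 lost its call without day 2, 4, 8, 10 or 16 and Irgm2 without day 2, 4 or 10.

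Several of the interferon-stimulated genes carry the GAAA repeat close to their start. The stretches below come from the RefSeq promoter windows (GRCm38.p6, 250 bases before to 50 after a gene's start), are written 5′ to 3′ on the gene's own strand, and are those of the 6 genes of the list with the largest log2 fold change among the 8 that hold a match. Capitals mark matches to GAAANNGAAA or, where the match is on the other strand, TTTCNNTTTC, and overlapping matches are run together. They are shown as examples of the repeat, and of these 6 genes only Bst2 was called by the curve. Whether Stat2 or Irf9 bound these stretches in the culture was not tested.
Isg15 (chr4:156200862-156200921, minus strand): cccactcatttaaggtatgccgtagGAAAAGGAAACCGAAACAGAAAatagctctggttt
Ifit1 (chr19:34640760-34640819, plus strand): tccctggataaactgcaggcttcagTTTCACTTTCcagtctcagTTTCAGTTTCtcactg
Bst2 (chr8:71537568-71537627, minus strand): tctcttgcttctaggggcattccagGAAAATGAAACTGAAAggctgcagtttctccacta
Oas1a (chr5:120907511-120907570, minus strand): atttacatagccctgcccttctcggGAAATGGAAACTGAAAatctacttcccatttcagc
Ifit3 (chr19:34583348-34583407, plus strand): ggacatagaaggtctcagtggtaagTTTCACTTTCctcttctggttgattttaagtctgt
Rsad2 (chr12:26456538-26456597, minus strand): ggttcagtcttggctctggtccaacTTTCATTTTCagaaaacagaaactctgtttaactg

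Isg15 shows 3 overlapping matches in 1 run, starting 78 bases upstream of the gene's start, Bst2 and Oas1a show 2 overlapping matches, and Ifit1 shows 2 separate ones on the opposite strand. The motif was looked for on both strands of all windows, and a gene was counted once if any of its windows held it. A match was found in 1079 of 27025 genes with a window (3.99%) and in 413 of the 11105 tested genes that could be paired with a window by symbol or synonym (3.72%). The called peaks held it in 29 of 312 paired genes (9.29%) and the called dips in 4 of 177 (2.26%). By day of the maximum the share was 1 of 9 for day 6, 22 of 113 (19.5%) for day 8, 5 of 115 (4.35%) for day 10 and 1 of 75 (1.33%) for day 12. Outside the list of 18, the called peaks with their maximum on day 8 held the motif in 20 of 107 genes (18.7%), among them Ddx60, Gbp3, Gbp7, Irgm2, Slfn8 and Trim30a. Of the list itself 14 genes could be paired and 8 held it (57.1%). A match is a run of letters and not a measurement of binding.

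**Figure D4:**
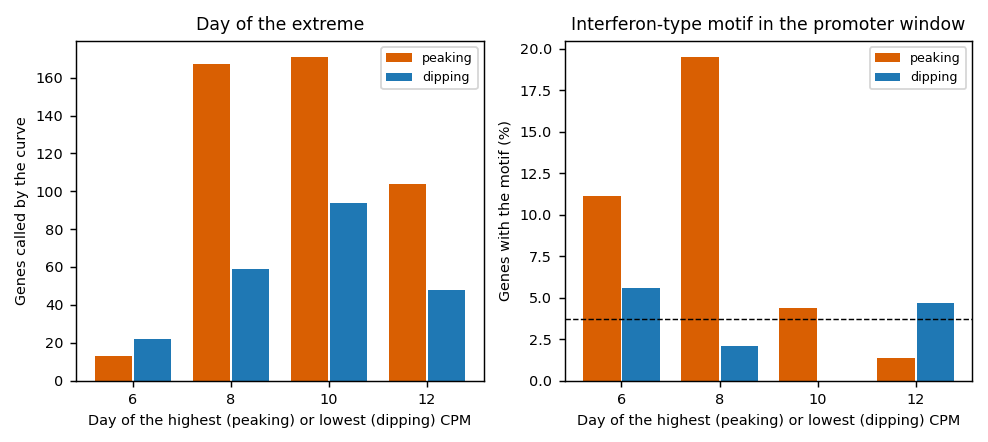
Left, number of called peaking (orange) and dipping (blue) genes by the day of their highest or lowest CPM among days 6, 8, 10 and 12. Right, percent of the paired genes in each group with the motif in a promoter window, where the dashed line is the 3.72% of all paired tested genes. Peaks with their maximum on day 8 (19.5%) stand above the line and those of day 12 (1.33%) below it, while the day 6 bar rests on 9 genes.

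The monocyte and macrophage list did not follow the day 8 maximum, and most other blood cell genes were too low to test. Of 13 monocyte and macrophage genes tested, none had the peaking shape, and their summed level was 20.9 and 28.0 CPM on the early days, 50.1, 55.2, 155 and 326 on the middle days, and 654 and 1524 on the late days. None of 8 neutrophil genes had enough counts to test, and the lymphocyte genes Cd3d, Cd3e, Cd3g, Igkc and Ms4a1 had 0 counts throughout. The lymphocyte list summed to at most 4.59 CPM, on day 18. None of 8 erythroid genes had enough counts to test. Of the mast cell list 1 gene was tested. It had the peaking shape, as 18.1% of all genes did, with a log2 fold change of 1.55, and was not called. The mast cell list summed to at most 4.36 CPM, on day 18. In bulk RNA, fewer cells of a type and less RNA per cell cannot be told apart.

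In the interferon group both the calls and the sizes depended on single libraries. All 18 genes kept a positive log2 fold change and a positive bend in every fit that left out 1 day. The list was chosen with earlier results of these data known. In 13 of the 18 the middle libraries lay wholly above the outer ones, so leaving out 1 day could not reverse their fold change. The curve called 7 of the 18 with all days, 1 without day 2, day 4 or day 8, 2 without day 10 or day 16, 10 without day 6, and 15 without day 18. The median bend was 2.82 with all days, 1.16 without day 2 and 4.75 without day 18. The lowest bend of the 18 was 1.27 with all days and 0.191 without day 2. With the robust option of edgeR 1 of the 18 was called, and with DESeq2 15 were.

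Of the 455 called peaks, 171 (37.6%) were highest on day 10, as were 787 (29.1%) of all 2704 genes with the peaking shape. With the overlap condition set aside, which was done after the values had been seen, the 5 called peaks of day 10 with the largest height and a mean of at least 5 CPM were Col9a3, Nptx1, Fbn2, Tll1 and Peg3. These 5 remained called when each of the 9 days was left out in turn, while the count of all called peaks fell from 455 to 191 without day 10. They encode a chain of type IX collagen, a neuronal pentraxin, the microfibril protein fibrillin-2, a tolloid-like protease that processes procollagen, and an imprinted zinc finger protein.

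Col9a3 climbed from 3.52 and 9.10 CPM on the early days through 18.4 and 41.4 to 73.2 on day 10, and came down through 44.2 and 36.3 to 29.0 and 21.3 on the late days. Its bend was 2.69 ± 0.27 log2 units (SE, edgeR quasi-likelihood adjusted p = 0.000578, between 2.38 and 3.09 when 1 day was left out). Fbn2 went from 66.3 and 91.3 CPM early through 144, 330, 534 and 466 to 350 on day 14 and 271 and 207 late. Tll1 stood at 77.6 and 107 CPM early, at 142, 200, 217 and 192 in the middle, at 160 on day 14, and at 143 and 107 late. These 3 genes rose and fell by steps over the whole course, and for each of them the lowest middle library (day 6) lay below the highest late library, so the middle and outer libraries overlapped. Estimated counts of Col9a3 were whole in 1 of the 27 lane profiles, and its level carries the uncertainty of shared reads.

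A few other matrix and cartilage genes took the same course in part. Sox9, the transcription factor of chondrocyte commitment, stood at 43.5 and 73.6 CPM early, 84.4, 120, 150 and 149 in the middle, 146 on day 14 and 121 and 110 late, with a bend of 1.03 log2 units that stayed between 0.98 and 1.10 without any 1 day. Col11a1, a fibril collagen of cartilage and early bone matrix, rose from 186 and 264 to 351, 719, 1015 and 948 CPM. It ended at 808 and 706, so its middle mean was 1.002 times the late mean. It was the only called peak among 26 collagen fibril and crosslinking genes (3.85%), a share near that of all genes. In the same list 1 gene was called as dipping. Of the 13 cartilage genes tested, the curve called Sox9 and Col9a3 as peaking and the proteoglycan core protein Acan as dipping, against 3.04% and 1.49% of all genes. Acan was a dip because of day 2, with 5.55 CPM on that day, 1.18 on day 4, 1.09 to 1.49 in the middle and 2.36 and 3.36 late, and it lost its call without day 2. The type II collagen gene Col2a1 was highest on day 2 (345 CPM) and lower on the late days (116 and 138), with a log2 fold change of 0.03.

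**Figure D5:**
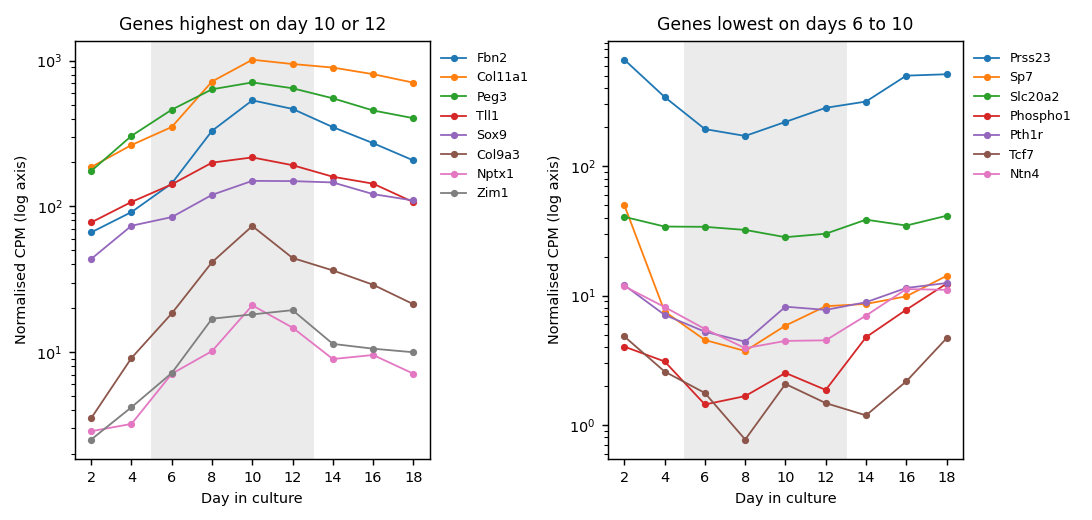
Normalised CPM (log axis) against day in culture, 1 library per point, with the middle days shaded, for 8 genes highest on day 10 or 12 (left) and 7 genes lowest on days 6 to 10 (right). Fbn2, Col9a3 and Peg3 climb to day 10 and come down slowly, whereas Sp7 starts at 49.9 CPM on day 2 and is near its lowest level by day 6.

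The 5 called peaks of day 12 chosen in the same way were Zim1, Tmem35, Fam59a, 4930455F23Rik and Zcchc5. Zim1 and Zcchc5 kept the call without each day, whereas Fam59a lost it without 7 of the days, Tmem35 without 5 and 4930455F23Rik without 4. Zim1 stood at 2.51 and 4.18 CPM early, at 7.17, 16.9, 18.1 and 19.4 in the middle and at 10.5 and 9.96 late. Zim1 and Peg3 are imprinted neighbours on chromosome 7 (NCBIM37, 6628154 to 6649161 and 6656603 to 6683132). Peg3 itself stood at 175 and 305 CPM early, at 461, 636, 709 and 646 in the middle and at 455 and 403 late, with no overlap between middle and outer libraries. A list of 20 imprinted genes was therefore looked at, after these values had been seen.

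Of the 18 imprinted genes tested, the curve called 6 as peaking, Peg3, Zim1, H19, Meg3, Mest and Rtl1, against 3.04% of all genes tested, and none as dipping. Meg3 and Rtl1 lost the call without day 2 or day 18. H19, a noncoding RNA, stood at 471 and 574 CPM early, 995, 1292, 1594 and 1632 in the middle, and 1254 and 1066 late. Mest rose from 49.3 and 80.6 to 266, 653, 719 and 710 CPM and was 588 and 484 late, with counts that were whole in none of the 27 profiles. Igf2, the neighbour of H19, did not share this shape, with 1260 and 840 CPM early, 769 to 3480 in the middle, and 3386 and 3642 late. Grb10, Ndn, Nnat and Dlk1 were not called either, with log2 fold changes from -0.13 to 0.17. The list was assembled from the leading genes and supports no statement on imprinting in general.

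Crabp1, the retinoic acid carrier, kept its call without each day in turn. It stood at 63.7 and 141 CPM early, at 308, 338, 239 and 158 in the middle, at 112 on day 14, and at 76.6 and 43.9 late, with a bend of 2.29 ± 0.31 log2 units (SE). The lowest middle library, day 12, exceeded the highest outer library, day 4, by a small margin. Mmp13, the interstitial collagenase of bone, was also highest on day 8, at 225 CPM, from 7.76 on day 2 and with 127 and 138 on the late days, and it lost its call without day 2, 4, 8, 10 or 16. The growth inhibitor Cdkn2b rose from 20.2 and 23.5 CPM to 29.7, 33.2, 32.0 and 30.6 and kept its call without each day.

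Called dips were lowest most often on day 10 (94 of 223) and next on day 8 (59 of 223). Among all 1767 genes with the dipping shape the order was reversed, with 524 (29.7%) on day 8 and 488 (27.6%) on day 10. The bend sets day 10 against both ends, so calls by the curve favour genes that turn near that day. Under the same naming rule 54 called dips were eligible, and the 14 with the largest height were Prss23, Ntn4, Slc13a5, Ckb, Rtn4rl1, Mgll, Sgms2, Arl5a, Tfrc, Ston2, Nr1d1, Ifngr1, Igfbp7 and Cd24a. They are of mixed function and include a secreted serine protease (Prss23), a netrin (Ntn4), a citrate transporter (Slc13a5), the transferrin receptor (Tfrc), lipid enzymes (Mgll and Sgms2) and a clock repressor (Nr1d1).

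Prss23 stood at 665 and 343 CPM on the early days, fell to 194, 171, 220 and 283 on the middle days, and recovered to 316 on day 14 and 501 and 514 on the late days. Its bend was -1.55 ± 0.25 log2 units (SE, edgeR quasi-likelihood adjusted p = 0.0036), between -2.07 and -1.14 when 1 day was left out. Ntn4 stood at 11.8 and 8.15 CPM early, 5.52, 3.92, 4.46 and 4.51 in the middle and 11.2 and 11.1 late. In both genes the late level came back to about the mean of the early days, 508 against 504 CPM for Prss23. Every middle library was below every outer one, as the naming rule required.

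Slc13a5, which brings citrate into cells, fell from 55.5 and 32.8 CPM to 10.5, 4.31, 6.00 and 7.10 and recovered in part to 12.4 and 12.1. Tfrc, which takes up iron, fell from 84.3 and 51.9 to 35.2, 32.0, 25.6 and 26.5 CPM, was 25.5 on day 14, and returned to 37.9 and 54.6. Sgms2, a sphingomyelin synthase, stood at 34.0 and 34.8, at 27.1, 21.3, 15.9 and 20.2, and at 41.4 and 52.9 CPM. The first 2 did not regain their day 2 level by day 18, while Sgms2 exceeded it. Of the 14 dips, 11 kept the call without day 2, 12 without day 10 and 12 without day 18, and all 14 kept it without any of the other days.

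A few osteoblast genes were among the called dips. Of 12 osteoblast transcription factors tested, the curve called 2 as dipping, Sp7 among them, and none as peaking. Of 14 matrix and mineralization genes tested it called Phospho1 and Slc20a2 as dipping. Over all genes 1.49% were called as dipping. The peaking shape was found in 3 of the 12 and 2 of the 14, and the dipping shape in 2 of each. The lists as a whole thus did not dip, and counts of 2 in lists of this size say little about them. Phospho1, a phosphatase that starts mineral formation in matrix vesicles, stood at 4.03 and 3.09 CPM early, 1.44, 1.67, 2.52 and 1.87 in the middle, 4.77 on day 14 and 7.78 and 12.4 late. Every middle library of Phospho1 was below every outer one, its call was kept without each day, and its estimated counts were whole in 4 of the 27 profiles. Slc20a2, a phosphate transporter, had a bend of -0.40 and lost its call without day 2, 4, 8, 10, 12 or 18.

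Sp7 (osterix), which is needed for osteoblast formation, had 49.9 CPM on day 2 but 7.53 on day 4, then 4.54, 3.73, 5.86 and 8.27, and 9.87 and 14.2 late. Its bend was -2.32 log2 units with all days and -0.87 without day 2, where the call was lost (edgeR quasi-likelihood adjusted p = 0.119). The dip of Sp7 thus rested on day 2, and its middle and outer libraries overlapped.

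A few signalling genes of the lineage were called as dipping. Pth1r, the parathyroid hormone receptor, stood at 12.0 and 7.09 CPM early, at 5.26, 4.40, 8.20 and 7.75 in the middle and was called as dipping with a bend of -0.94, which was lost without 7 of the 9 days (all but days 6 and 10). Tcf7, a Wnt-responsive transcription factor, fell from 4.83 and 2.59 to 1.77, 0.771, 2.07 and 1.48 CPM and lost its call without day 2 or day 18. In all, 2 of 15 Wnt response genes, 1 of 16 BMP and TGF-beta response genes, 1 of 10 IGF genes and 2 of 15 clock genes were called as dipping, and 1 of 8 Notch and 1 of 6 Hedgehog response genes (Notch2 and Gli3) as peaking. Over all genes 1.49% were called as dipping and 3.04% as peaking, and counts of 1 or 2 in lists of this size say little about the lists.

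In several lists the curve called no gene, which at 3.04% and 1.49% of all genes is a count near the background for lists of this size. None of 20 DNA replication and none of 20 mitosis genes was called in either direction, and the same held for 5 osteocyte, 10 small leucine-rich proteoglycan, 10 complement, 12 contractile and 9 adipocyte genes tested. Of 18 genes of cholesterol synthesis, 8 had the peaking shape (18.1% of all genes did), 1 had no overlap (Dhcr7, 1.85% of all genes) and the curve called 1 (3.04% of all genes). This was the regulator Srebf2, which was highest on day 8 at 108 CPM and lost its call without each of 8 of the 9 days.

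Day 14 was not used by the shape rule and shows how quickly levels turned. With the curve fitted without day 14, 402 peaking and 188 dipping genes were called. On day 14, 119 of these 402 peaks (29.6%) were still above their middle mean, 197 (49%) lay between the late and the middle mean and 86 (21.4%) had fallen below the late mean. Among all genes with the peaking shape the shares were 29.9%, 35.8% and 34.4%. Of the 188 dips, 65 (34.6%) were still below the middle mean, 92 (48.9%) lay between and 31 (16.5%) had risen above the late mean, against 38.7%, 32% and 29.4% of all genes with the dipping shape.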

How the data were processed

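RNA of 9 days was amplified (NuGEN Ovation) and sequenced from Illumina TruSeq libraries. The authors aligned reads with Bowtie 0.12.9 to NCBIM37 and deposited RSEM 1.2.8 gene files, per the labels, with expected counts (not normalized, not whole where reads are shared) and TPM. Of 37991 gene identifiers, 37205 matched a symbol.

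The expected counts of the 3 lane files of a day were summed and rounded as 1 library, since they carry the same barcode and agree within counting noise. The deposited TPM values were averaged over the lanes, scaled by upper quartile and entered no comparison printed here. Genes passing filterByExpr (minimum count 10) were fitted with edgeR 4.0.16 (R 4.3.3, quasi-likelihood, upper-quartile factors, Benjamini-Hochberg adjustment) as 2 groups, 3 groups, and a line plus day squared. Totals were 22470195 to 62009157 counts and limit precision for low genes. The ± values are standard errors from the quasi-likelihood fits and include the spread between days. The upper limit given for genes without counts covers counting error only. DESeq2 1.42.0, TMM, no factors, other filters, the lanes as samples and leaving out days were alternatives. The fits were also run on simulated data, and no result given here rests on that run.

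The members and gene lists were chosen with earlier results of these data known. Named genes were to be the 14 called protein-coding genes per direction with the largest height over the nearer side, a mean of at least 5 CPM and no overlap, plus up to 4 called members of each list. As the direct comparison called none, this rule was applied to the calls of the curve after the values were seen. The lists on interferon signalling, antigen processing, guanylate-binding proteins and GTPases, and imprinted genes, and the peaks by day, were also added then. Promoter windows (RefSeq, GRCm38.p6) were paired by symbol or synonym. Their coordinates were not mixed with NCBIM37.

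The replicate numbers of lane files did not pair across days. The mean correlation of deviations was 0.00568 for the same number and -0.00284 for different numbers. Some genes are not reported here.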

Additional observations from a re-analysis of the deposited data

Results flagged for a closer look

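In 194 groups of 4 libraries (the middle and the outer libraries of 97 named genes), 7 held a library far from the other 3, where chance alone flags about 1 group in 20. Sp7 on day 2 (49.9 CPM) stood above the other outer libraries (7.53 to 14.2). Nr1d1 on day 18 (59.2 CPM) stood above the other outer libraries (32.0 to 35.6). On day 4, Rnf213 (119 CPM, others 68.8 to 76.9) and Notch2 (179 CPM, others 127 to 133) stood above the other outer libraries. The transcript 4930455F23Rik was lower on day 2 (3.58 CPM) than on the other outer days (4.61 to 4.76). Nkd2, a Wnt feedback gene, was higher on day 6 (23.2 CPM) than on the other middle days (11.1 to 12.8). Mest was lower on day 6 (266 CPM) than on the other middle days (653 to 719).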

How the results depend on the processing

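The count of 0 in the direct comparison, in both directions and against either or both sides, held under TMM, no factors, removal of the mitochondrial ribosomal RNA genes, both other filters on low counts, the robust option, day 14 in the late or middle group, the 3 group average, an adjusted p under 0.01 and leaving out any 1 day. Without 1 lane file of every day it was 0 for peaks, and 0 to 1 for dips in the direct comparison and against both sides. DESeq2 gave 36 peaks and 23 dips, and 30 and 11 against both sides. The line plus day squared gave 455 and 223. With the 24 lane profiles taken as separate samples, which repeats each library 3 times, the counts were 594 and 358, and 409 and 207 against both sides, and with the replicate block they were 492 and 291, and 365 and 188. The lanes share only a number, so the block pairs nothing.

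For the curve, the 27 profiles gave 1630 peaks and 886 dips, and 1601 and 854 with the replicate block. DESeq2 gave 558 peaks and 387 dips, TMM 365 and 273, and no factors 496 and 149. An adjusted p under 0.01 left 126 and 62, and the demand of no overlap 127 and 70. Leaving out 1 day gave 191 to 626 peaks and 93 to 295 dips. The lowest peak count was without day 10 (191, of which 178 were among the 455) and the lowest dip count without day 18 (93, of which 69 were among the 223). Without day 2 there were 232 and 134, without day 12 279 and 142, and without day 18 284 peaks. Leaving out 1 lane file of every day gave 413 to 423 peaks and 198 to 206 dips.

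No log2 fold change or bend of a named gene changed sign under any alternative. Most of these genes were named for a called bend or for non-overlapping libraries in the same data. Their sign was thus largely fixed by the choice and is no separate evidence. Of 86 named genes with a called bend, 36 kept the call without each day in turn. One library per day limits every statement on time, and depth limits genes near 1 CPM.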

Other observations

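Among called peaks with the interferon-type motif and a maximum on day 8 were several genes outside the lists, and their values were seen before they were chosen for mention. Oas1b, an oligoadenylate synthetase, had a log2 fold change of 3.03 between middle and outer days, Tgtp2, a T cell GTPase, 2.32, and Trim34a 1.42. The retrovirus restriction factor Apobec3 had 0.67 and the proteasome activator Psme1 0.34.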
